A study of Homo sapiens with 6 samples.

Results

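The genes described here encode the machinery that moves cargo along cilia and microtubules, measured in HEK293, an established cell line of human embryonic kidney origin. They were chosen by name from the deposited table: symbols of the IFT, BBS, DNAH, DYNC1, DYNC2, DYNL and TCTN series plus TTC8, TTC21B, TTC26, TTC30A and TTC30B, without hyphenated names. The rule took 48 of 15496 listed genes. The study set 3 libraries from cells treated with the quinolinol B23 against 3 libraries from DMSO solvent controls. Cells of both groups came from the same line and were grown in medium with serum. Polyadenylated RNA was sequenced. The sources used here give neither the dose nor the duration of treatment. The labels call the libraries triplicates and name no separate cultures, so the p-values reflect variation among libraries that may be purely technical.

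A cilium is a microtubule-based projection built and serviced by intraflagellar transport (IFT). Kinesin-2 carries trains of the IFT-B and IFT-A complexes outward, and dynein-2 returns them to the cell body. The BBSome, an assembly of Bardet-Biedl syndrome proteins, couples membrane proteins to the trains. Tectonic proteins belong to the transition zone, the gate at the base of the cilium. Cytoplasmic dynein-1 moves cargo towards microtubule minus ends throughout the cell and shares light chains with dynein-2. Axonemal dyneins, whose heavy chains are the DNAH proteins, drive the beating of motile cilia. HEK293 cells can form a solitary non-motile cilium, mostly when serum is withdrawn.

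The listed genes held 40950318 to 47444126 reads per library. Levels are in CPM (counts scaled by library, as deposited by the authors). A single read was worth 0.0158 to 0.0164 CPM without B23 and 0.0197 to 0.0217 CPM with it. Summed over the listed genes, each DMSO library came to between 745216 and 753745 CPM. The sum was larger in every B23 library, between 890367 and 900113 CPM, so the folds below carry this difference in scale. B23 minus DMSO differences are on the log2(CPM + 0.5) scale from limma, Benjamini-Hochberg adjusted over the 14792 genes averaging 1 CPM or more, with a threshold of 0.05. Folds are ratios of mean CPM, and errors are SD over n = 3 libraries. Between the treatments, 39.6% of all tested genes were called higher in B23 and 49.0% lower. In sum, 88.6% were called in either direction, so a call alone is common in these data. Of 10 genes set as markers of the line, all were in the table, 5 called higher and 5 lower (median log2 difference -0.11). At least 1 log2 unit was reached by 2 of those higher and 3 of those lower. Their log2 differences ran from -1.75 (PAX2) to 1.47 (KRT8). By level the lowest was PAX2, a kidney developmental factor gene with means of 5.85 ± 0.712 CPM without and 1.38 ± 0.204 CPM with B23. The highest was the intermediate filament gene VIM with means of 382 ± 15.3 CPM without and 706 ± 18.6 CPM with B23. The summed level of the 10 markers was 899.7 to 943 CPM without B23 and 1336 to 1417 CPM with it. VIM and KRT8 (111 and 308 CPM) had the largest rises in CPM. Of markers of other cell types, CD68 (1 of 5 leukocyte genes in the table) had means of 3.32 ± 0.268 CPM without and 5.82 ± 0.192 CPM with B23, KDR (1 of 4 endothelial genes) was below the filter, and of 2 of 5 fibroblast genes COL1A1 had means of 9.37 ± 0.325 CPM without and 12.4 ± 0.921 CPM with B23 and DCN was below the filter.

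Cilium transport and dynein genes went both ways after B23. Counts of rises and falls varied between complexes of few genes each, and the complexes as sets were not compared by a test. Of the 47 members that passed the filter on low values, 21 rose, 21 fell and 5 were not called. These are 44.7% higher and 44.7% lower, near the 39.6% and 49.0% of all tested genes. A rise of at least 1 log2 unit was called in 3 members (6.38%, against 9.65% of all genes) and a fall of that size in 7 (14.9%, against 15.8%). The median log2 difference of the members was -0.011, beside -0.10 for all tested genes. In RNA of whole cultures, fewer cells that hold a transcript and less of it per cell cannot be told apart. All B23 values lay on one side of all DMSO values in 41 of 47 members, or 87.2%, against 88.9% of all genes. Groups that do not overlap are thus as common in these data as calls are. The member left out of the test was DNAH2, with 49, 44 and 44 reads in DMSO and 23, 9 and 7 reads in B23. When every library's listed genes were given equal totals, 16 members were called higher and 27 lower. Lower calls then made up 62.8% of the members' calls, against 50% with the deposited CPM, and 67.5% of all genes' calls, against 55.3%. Equal totals moved the median log2 difference of all tested genes by -0.24. The called rises of IFT22 (0.14), TCTN1 (0.14), DYNLRB1 (0.24) and IFT81 (0.24) were no larger than that shift, and each turned negative with equal totals.

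**Figure D1:**
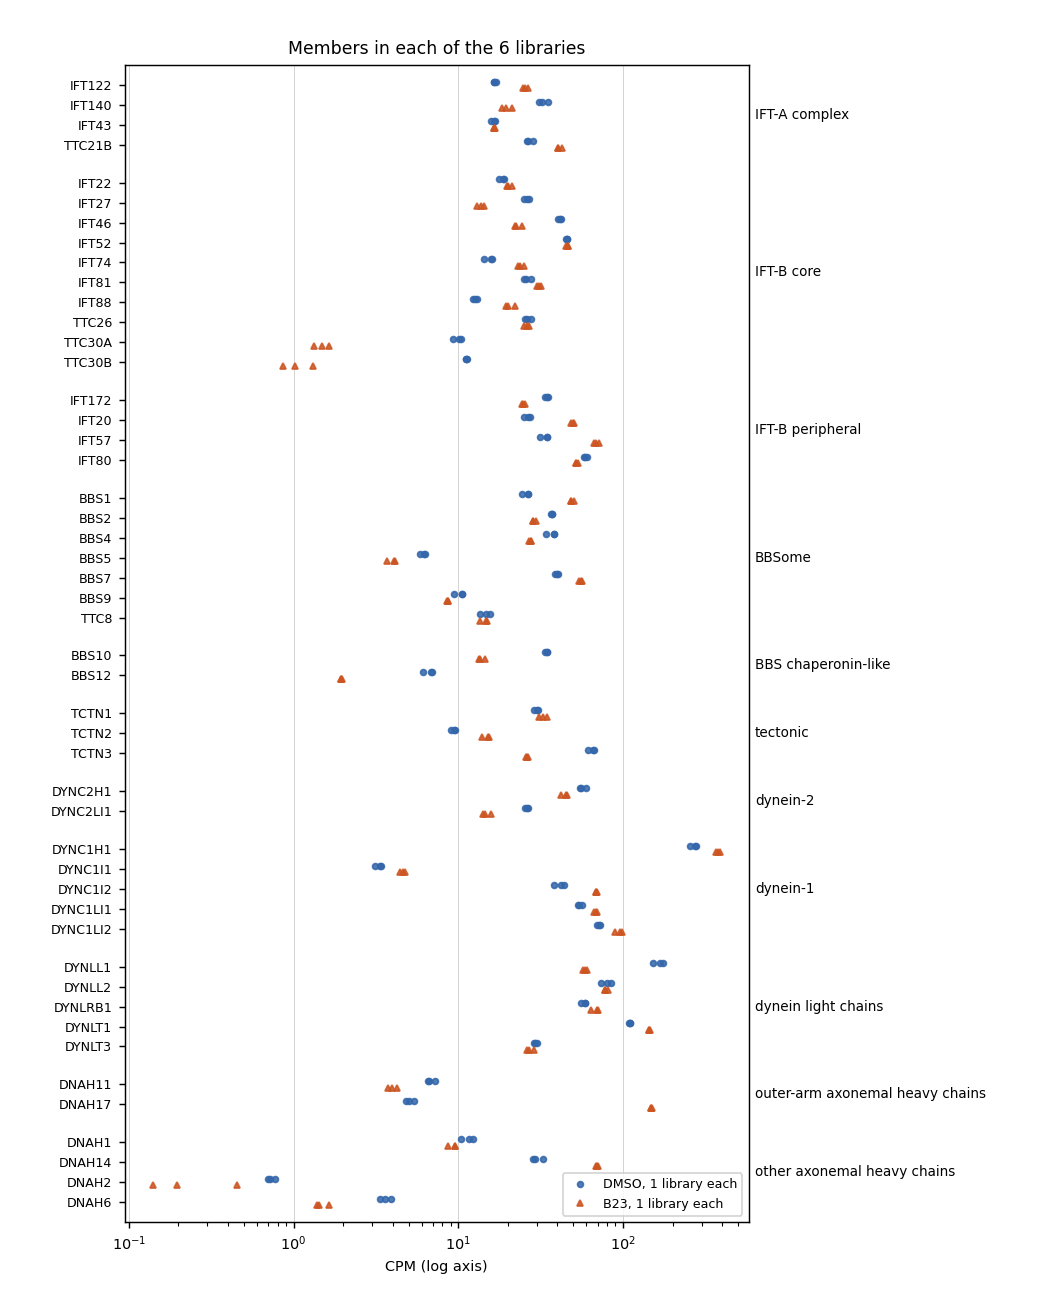
CPM of the 48 members on a log axis, 1 point per library, grouped by the complex the protein belongs to. Circles are the 3 DMSO and triangles the 3 B23 libraries. DNAH17 lies at 4.80 to 5.39 CPM without B23 and at 148 to 149 CPM with it, while TTC30A and TTC30B lie lower in B23 than in DMSO in every library.

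**Figure D2:**
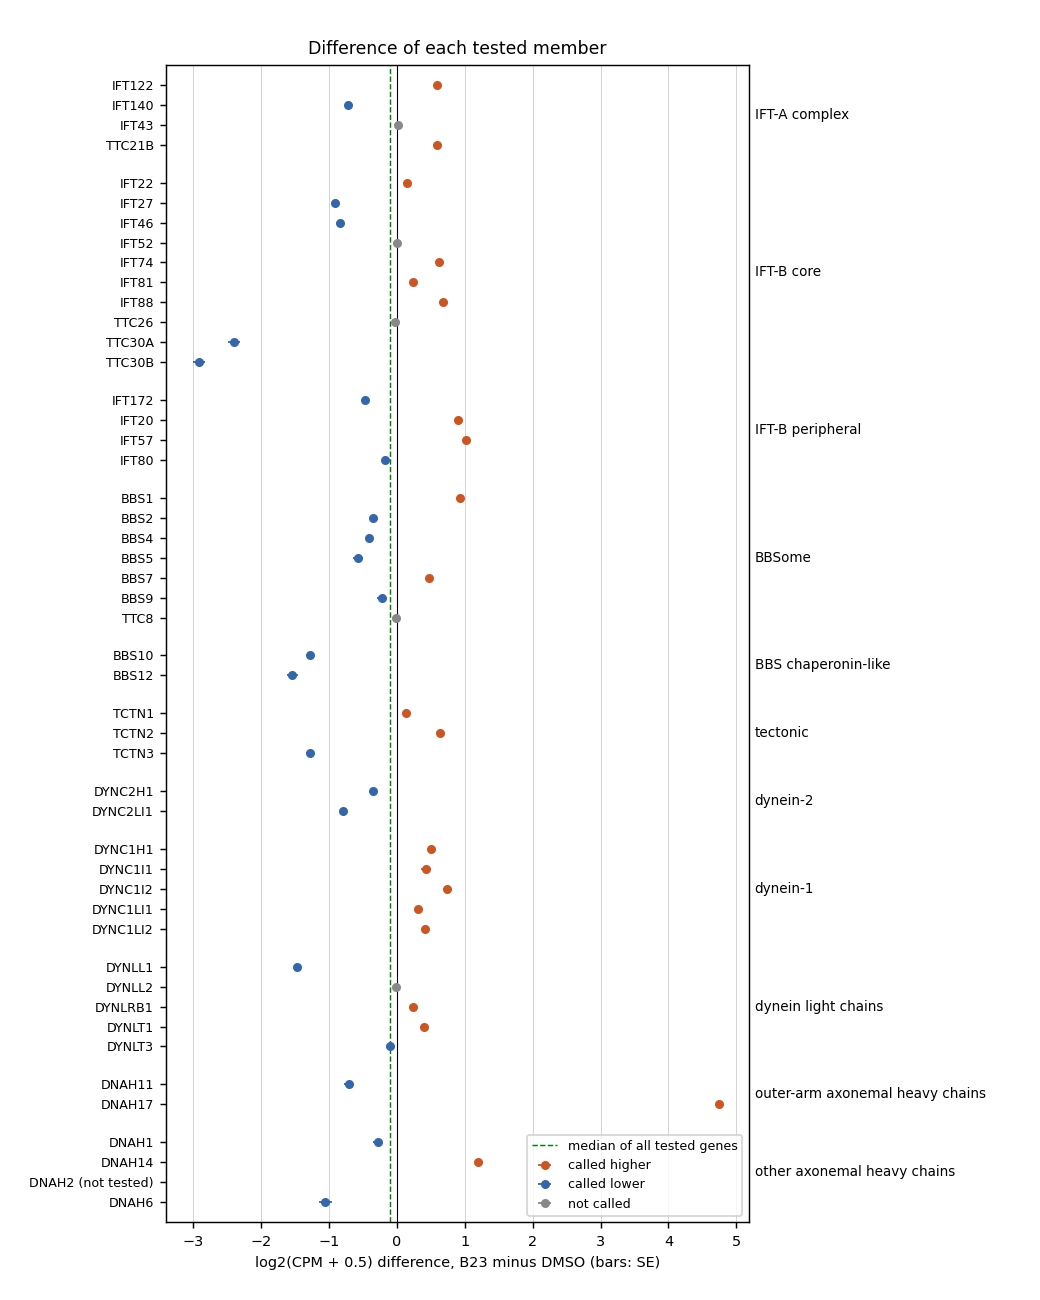
Log2(CPM + 0.5) difference, B23 minus DMSO, of the 47 tested members, with the SE of the limma fit as bars. Colours give the call and the dashed line the median of all tested genes, -0.10. The 5 dynein-1 genes lie to the right of 0 and the 2 members for dynein-2 chains to the left.

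Subunits of IFT-A, the complex needed for retrograde transport and for entry of membrane proteins, did not move together. IFT122 was at 16.5, 16.5 and 16.95 CPM without B23 and at 26.3, 24.6 and 25.2 CPM with it, and it rose 1.53-fold (log2 difference 0.59, SE 0.0473, limma adjusted p = 2.04e-11). TTC21B, the gene of IFT139, was at 26.4, 28.5 and 26.2 CPM without B23 and at 40.1, 40.5 and 42.4 CPM with it and rose 1.52-fold (log2 difference 0.59, SE 0.0439, limma adjusted p = 5.41e-12). All 3 B23 values of both genes lay above the DMSO values. IFT140, which forms part of the core of the complex, was at 32.3, 30.7 and 34.999 CPM without B23 and at 21.1, 18.5 and 19.6 CPM with it. It fell 1.66-fold (log2 difference -0.71, SE 0.0534, limma adjusted p = 1.10e-11), and its groups did not overlap. IFT43 was not called, with means of 16.3 ± 0.476 CPM without and 16.5 ± 0.0841 CPM with B23 (limma adjusted p = 0.715), and it was called higher with median-of-ratios scaling (0.13) and quantile normalization (0.29) and lower with equal totals (-0.23). IFT122 shares exonic bases with MBD4 and IFT140 with TELO2 on the opposite strand, and IFT43 shares them with TTLL5 on its own strand. Part of the reads of these genes is therefore uncertain.

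Among IFT-B subunits the values also spread in both directions, from -2.91 to 1.02 on the log2 scale. In the peripheral part of IFT-B, which contacts kinesin-2, IFT57 was at 31.5, 34.3 and 34.6 CPM without B23 and at 66.3, 71.1 and 68.5 CPM with it and rose 2.05-fold (log2 difference 1.02, SE 0.0421, limma adjusted p = 4.28e-17). IFT20, which also acts at the Golgi, was at 25.1, 26.6 and 27.1 CPM without B23 and at 50.3, 48.2 and 49.6 CPM with it and rose 1.88-fold (log2 difference 0.90, SE 0.0419, limma adjusted p = 5.49e-16). IFT172 was at 34.7, 35.2 and 33.7 CPM without B23 and at 25.2, 24.6 and 24.3 CPM with it and fell 1.40-fold (log2 difference -0.47, SE 0.0422, limma adjusted p = 1.74e-10). The groups of these 3 genes did not overlap, as in 88.9% of all tested genes. IFT80 fell less, from 58.9 ± 1.45 to 52.3 ± 0.617 CPM (log2 difference -0.17, limma adjusted p = 1.51e-04), and was not called with median-of-ratios scaling (-0.061, limma adjusted p = 0.124). IFT20 shares exonic bases with TMEM97, IFT80 with SMC4 on the opposite strand and with the same-strand locus AC079594.2. SMC4 was at 258 CPM without B23 and 831 CPM with it.

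In the IFT-B core, 4 of 10 tested genes rose, 4 fell and 2 were not called. IFT88, the subunit lost in the classical mouse model of cystic kidney disease, was at 12.2, 12.9 and 12.6 CPM without B23 and at 19.5, 22.0 and 20.02 CPM with it and rose 1.63-fold (log2 difference 0.68, SE 0.0547, limma adjusted p = 2.38e-11). IFT74, which with IFT81 binds tubulin cargo, rose 1.56-fold, from 15.3 ± 0.861 to 23.8 ± 0.957 CPM, and IFT81 rose 1.18-fold, from 26.2 ± 1.32 to 30.9 ± 0.743 CPM, though with equal totals IFT81 stood at -0.012. The reads of IFT74 overlap PLAA on the opposite strand. IFT22, a small GTPase-like subunit, rose by 0.14 on the log2 scale (limma adjusted p = 0.00976). That call was lost without DMSO replicate 2 (0.11, limma adjusted p = 0.0679) and without B23 replicate 3 (0.11, limma adjusted p = 0.0601), and it turned to -0.10 with equal totals. IFT46 fell 1.79-fold, from 41.4 ± 0.889 to 23.1 ± 1.26 CPM. IFT27, a small GTPase-like subunit that is needed for BBSome exit, was at 24.97, 26.1 and 27.0 CPM without B23 and at 14.2, 13.002 and 13.7 CPM with it and fell 1.91-fold (log2 difference -0.91, SE 0.0510, limma adjusted p = 2.17e-14). IFT52 and TTC26 were not called, with log2 differences of 0.0084 and -0.022. IFT52 was called higher with median-of-ratios (0.12) and TMM scaling (0.085), and lower with equal totals (-0.24) and quantile normalization (-0.10). TTC26 was called lower with equal totals (-0.27).

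The largest falls of all members were those of TTC30A and TTC30B, a pair of single-exon genes for IFT70, a tetratricopeptide repeat protein of the IFT-B core. TTC30A was at 10.4, 10.1 and 9.33 CPM without B23 and at 1.496, 1.63 and 1.32 CPM with it. TTC30B was at 11.2, 11.1 and 11.3 CPM without B23 and at 0.866, 1.305 and 1.02 CPM with it. Every B23 library held 44 to 76 reads of each gene, where DMSO libraries held 587 to 712. TTC30A fell 6.70-fold (log2 difference -2.40, SE 0.0834, limma adjusted p = 1.58e-18) and TTC30B fell 10.5-fold (log2 difference -2.91, SE 0.0922, limma adjusted p = 3.36e-19). Both lie on chromosome 2 in GRCh38, TTC30A from 177612992 to 177618966 and TTC30B from 177548998 to 177553014, on the minus strand. TTC30B shares 220 exonic bases with AGPS on the opposite strand, which was at 58.1 CPM without B23 and 44.3 CPM with it. The coding sequences have the same length of 1995 bases and are identical at 1915 of them (96.0%). Of all 50-base windows of the TTC30A coding sequence, 32.3% occur in TTC30B without a change, so the split of reads between the genes is uncertain. The stretch of 90 coding bases with the most differences, bases 1782 to 1871 of each, is shown to let both copies be compared, with the 12 bases that differ in capitals (GENCODE 29, GRCh38, minus strand, chr2:177616831-177616920 and chr2:177550893-177550982).
TTC30A: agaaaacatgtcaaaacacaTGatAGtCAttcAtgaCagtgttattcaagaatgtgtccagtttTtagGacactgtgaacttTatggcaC
TTC30B: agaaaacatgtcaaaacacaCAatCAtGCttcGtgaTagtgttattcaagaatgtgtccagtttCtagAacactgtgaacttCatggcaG
The ratio of TTC30A to TTC30B within a library was 0.928, 0.912 and 0.824 in DMSO and 1.73, 1.25 and 1.29 in B23. The ratio was below 1 in each DMSO library and above 1 in each B23 library.

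Of 7 BBSome genes 2 rose, 4 fell and 1 was not called. BBS1, whose protein contacts the GTPase ARL6 on the membrane, was at 26.4, 24.5 and 26.4 CPM without B23 and at 48.6, 48.6 and 50.6 CPM with it and rose 1.91-fold (log2 difference 0.92, SE 0.0424, limma adjusted p = 3.92e-16). BBS7 rose 1.40-fold, from 39.6 ± 1.04 to 55.4 ± 0.965 CPM. The groups of both genes did not overlap, as in 88.9% of all tested genes. BBS5, a lipid-binding subunit, was at 5.84, 6.20 and 6.24 CPM without B23 and at 4.07, 4.11 and 3.67 CPM with it and fell 1.54-fold (log2 difference -0.57, SE 0.0761, limma adjusted p = 2.14e-07). BBS4 was at 34.2, 37.8 and 38.2 CPM without B23 and at 26.9, 27.7 and 27.7 CPM with it and fell 1.34-fold (log2 difference -0.41, SE 0.0456, limma adjusted p = 8.32e-09). BBS2 fell 1.28-fold and BBS9 fell 1.18-fold. TTC8, also known as BBS8, was not called (log2 difference -0.014, limma adjusted p = 0.821). The balance of the complex turned with quantile normalization, in which 4 genes were called higher and 2 lower, with BBS9 at 0.18 and BBS5 not called (-0.070, limma adjusted p = 0.379). BBS1 shares 3311 exonic bases with the same-strand locus AP002748.4, which went from 28.2 to 53.0 CPM, and also overlaps ZDHHC24. BBS5 likewise overlaps AC093899.2, and BBS2 overlaps OGFOD1 on the opposite strand.

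BBS10 and BBS12, relatives of group II chaperonins that help assemble the BBSome, fell more than any BBSome subunit. BBS10 was at 33.7, 34.4 and 34.4 CPM without B23 and at 13.5, 14.5 and 13.4 CPM with it and fell 2.47-fold (log2 difference -1.28, SE 0.0474, limma adjusted p = 5.59e-18). BBS12 was at 6.93, 6.12 and 6.82 CPM without B23 and at 1.93, 1.96 and 1.95 CPM with it and fell 3.41-fold (log2 difference -1.54, SE 0.0817, limma adjusted p = 6.89e-15). In both genes all DMSO libraries lay above all B23 libraries, and 88.9% of all tested genes had no overlap of the groups. MKKS, another chaperonin-like gene of this family, fell 1.35-fold, from 38.2 ± 0.401 to 28.2 ± 0.517 CPM.

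The tectonic genes, whose products act with the Meckel syndrome proteins in the transition zone, diverged. TCTN3 was at 66.2, 65.8 and 60.9 CPM without B23 and at 26.2, 25.6 and 26.7 CPM with it and fell 2.46-fold (log2 difference -1.28, SE 0.0415, limma adjusted p = 3.88e-19). TCTN2 was at 9.52, 9.08 and 9.41 CPM without B23 and at 15.4, 15.2 and 13.9 CPM with it and rose 1.59-fold (log2 difference 0.64, SE 0.0588, limma adjusted p = 3.29e-10). TCTN1 was at 30.2, 30.3 and 28.6 CPM without B23 and at 30.9, 32.8 and 34.4 CPM with it, a log2 difference of 0.14 (SE 0.0457, limma adjusted p = 0.00788). The groups did not overlap in any of the 3, as in 88.9% of all tested genes. The call of TCTN1 was lost without B23 replicate 3 (0.10, limma adjusted p = 0.0710), and TCTN1 was called lower with equal totals (-0.11, limma adjusted p = 0.0249).

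All 5 genes for chains of dynein-1 rose with the CPM as deposited. Both members for chains of dynein-2 fell, while of 3 other dynein-2 chain genes 2 rose and 1 fell. Of all tested genes, 39.6% were called higher and 49.0% lower, and these sets hold few genes. A difference between the motors was tested only for the heavy chains. DYNC1H1, the dynein-1 heavy chain that holds the motor domain, was at 255, 276 and 272 CPM without B23 and at 367, 379 and 390.3 CPM with it. It rose 1.41-fold (log2 difference 0.50, SE 0.0371, limma adjusted p = 5.21e-12). The intermediate chain gene DYNC1I2 was at 37.998, 41.96 and 43.7 CPM without B23 and at 68.6, 69.4 and 68.7 CPM with it and rose 1.67-fold (log2 difference 0.74, SE 0.0433, limma adjusted p = 7.05e-14). Its relative DYNC1I1, known mainly from neurons, was at 3.34, 3.40 and 3.13 CPM without B23 and at 4.64, 4.44 and 4.73 CPM with it and rose 1.40-fold. The light intermediate chain genes DYNC1LI1 and DYNC1LI2, which bind cargo adaptors, rose 1.25-fold and 1.33-fold. No dynein-1 gene reached 1 log2 unit. The groups did not overlap in any of the 5, as in 88.9% of all tested genes. The rise of DYNC1H1 turned to -0.0080 with quantile normalization (limma adjusted p = 0.825), and that of DYNC1LI1 was not called with equal totals (0.065, limma adjusted p = 0.104). In those settings 4 of the 5 remained called higher and 0 were called lower.

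DYNC2H1, the dynein-2 heavy chain that powers retrograde transport in the cilium, was at 55.1, 55.7 and 59.2 CPM without B23 and at 42.1, 45.0 and 45.7 CPM with it and fell 1.28-fold (log2 difference -0.35, SE 0.0412, limma adjusted p = 2.17e-08). The light intermediate chain gene DYNC2LI1 was at 25.4, 25.98 and 26.6 CPM without B23 and at 14.6, 15.9 and 14.1 CPM with it and fell 1.75-fold (log2 difference -0.79, SE 0.0514, limma adjusted p = 3.99e-13). All B23 values lay below all DMSO values in both genes, where 88.9% of all tested genes had no overlap. Both genes were called lower under each of the 4 other scalings. The CPM ratio of DYNC1H1 to DYNC2H1 was 4.62, 4.96 and 4.59 without B23 and 8.71, 8.43 and 8.53 with it. On the log2 scale the ratio was 0.853 higher in B23, with an exact permutation p of 0.1 over the libraries, the smallest that 3 against 3 allows. Of the remaining dynein-2 chains, WDR60 rose 2.20-fold, from 17.2 ± 1.10 to 37.8 ± 1.79 CPM, WDR34 rose 1.17-fold, and TCTEX1D2 fell 1.302-fold. With equal totals 1 of these 3 genes was called higher and 1 lower, and with quantile normalization 2 and 0.

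Light chains are common to dynein-1 and dynein-2. Of their genes, DYNLL1, DYNLT1 and DYNLRB1 led the members per kilobase of transcript. DYNLL2 ranked 21 of the 48 members in DMSO and 20 in B23, and DYNLT3 ranked 19 and 17. DYNLL1 and DYNLL2 encode LC8, a dimer that also binds many proteins outside dynein. DYNLL1 was at 175, 168 and 151 CPM without B23 and at 57.2, 58.5 and 60.5 CPM with it, and every B23 value lay below every DMSO value. DYNLL2 was at 84.8, 79.6 and 74.0 CPM without B23 and at 77.3, 81.4 and 77.6 CPM with it, and its groups overlapped. DYNLL1 fell 2.80-fold (log2 difference -1.47, SE 0.0431, limma adjusted p = 1.78e-18), while DYNLL2 had a log2 difference of -0.011 (SE 0.0421, limma adjusted p = 0.813). The CPM ratio of DYNLL1 to DYNLL2 was 2.06, 2.11 and 2.04 in DMSO and 0.741, 0.719 and 0.780 in B23. The ratio thus went from above 1 in each DMSO library to below 1 in each B23 library (log2 change -1.46, exact permutation p = 0.1). Their coding sequences, of 267 bases each, are identical at 79.8% of positions and share 0 windows of 50 bases. DYNLL2 was called lower with equal totals (-0.26) and with quantile normalization (-0.29), and higher with median-of-ratios scaling (0.10). DYNLL1 was called lower in all 19 alternatives.

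The Tctex-type light chain gene DYNLT1 was at 109.7, 111 and 109 CPM without B23 and at 146, 144 and 144 CPM with it and rose 1.32-fold (log2 difference 0.40, SE 0.0320, limma adjusted p = 2.54e-11). Its relative DYNLT3 was at 28.6, 29.97 and 29.1 CPM without B23 and at 26.2, 28.6 and 27.0 CPM with it, with overlapping groups, a log2 difference of -0.10 and a limma adjusted p of 0.0423. The call of DYNLT3 was kept in 10 of 19 alternatives and lost in 4 of the 6 fits without a library. The roadblock-type gene DYNLRB1 was at 58.9, 59.04 and 55.4 CPM without B23 and at 69.9, 63.9 and 70.7 CPM with it and rose 1.18-fold (log2 difference 0.24, SE 0.0413, limma adjusted p = 1.17e-05). With quantile normalization neither DYNLT1 (-0.0043) nor DYNLRB1 (0.040) was called, and with equal totals DYNLRB1 stood at -0.015. In all, 6 related pairs were compared within libraries, with p-values adjusted over them. Ratios of 5 pairs did not overlap between the groups (exact permutation p = 0.1, adjusted p = 0.12 each). The exception was DYNC1LI1 to DYNC1LI2 (log2 change -0.093, exact permutation p = 0.2). No ratio could pass a threshold of 0.05 in this design.

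**Figure D3:**
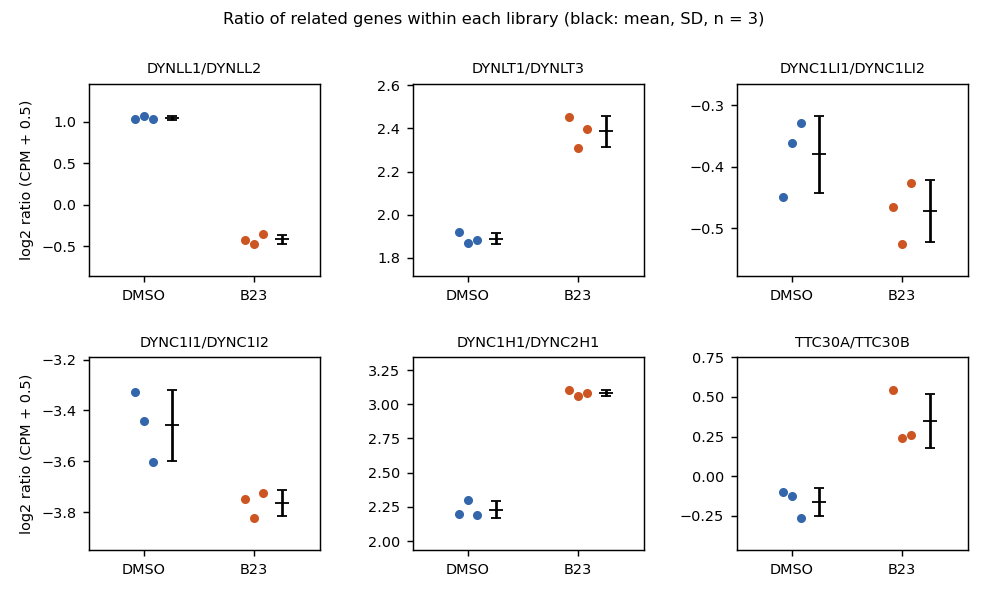
Log2 ratio of CPM + 0.5 between related genes within each library, 1 point per library, with the mean and SD of 3 libraries in black. Each panel has its own axis. The DYNLL1/DYNLL2 ratio lies above 0 in DMSO and below 0 in B23, and the DYNC1LI1/DYNC1LI2 ratios of the groups overlap.

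Among the axonemal heavy chain genes, 2 of 5 tested rose and 3 fell, and DNAH17 stood apart. DNAH17, a heavy chain of the outer dynein arm best known from sperm flagella, was at 4.80, 5.00 and 5.39 CPM without B23 and at 149, 149 and 148 CPM with it. The 3 B23 libraries held 7589, 6841 and 7395 reads of it and the DMSO libraries 303, 304 and 339. It rose 29.4-fold (log2 difference 4.75, SE 0.0454, limma adjusted p = 8.24e-29), the largest change among the members, and it was called higher in all 19 alternatives. Per kilobase of transcript it moved from rank 46 of the 48 members in DMSO, at 0.369 CPM per kb, to rank 23 in B23, at 10.8 CPM per kb. The gene lies on chromosome 17 from 78423697 to 78577394 in GRCh38, on the minus strand, with 81 exons in its principal transcript. On the plus strand it shares 93 exonic bases with PGS1 and 1474 with DNAH17-AS1, which was not analysed here. PGS1 was at 27.1, 26.5 and 26.5 CPM without B23 and at 31.0, 31.9 and 32.3 CPM with it. DNAH17 has 16108 exonic bases in all. The strand setting of the counting is unknown, so reads over the shared bases cannot be assigned to DNAH17 or to its antisense partner. How many of the reads fall on those bases is not known.

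The other outer-arm gene, DNAH11, which is mutated in primary ciliary dyskinesia, was at 6.59, 7.19 and 6.64 CPM without B23 and at 3.74, 3.98 and 4.27 CPM with it. It fell 1.70-fold (log2 difference -0.70, SE 0.0759, limma adjusted p = 6.04e-09). DNAH11 shares 833 exonic bases with CDCA7L on the opposite strand, which was at 63.7 CPM without B23 and 53.9 CPM with it. Part of the reads of DNAH11 is therefore uncertain. DNAH14, assigned to the axonemal chains by sequence, was at 28.4, 29.1 and 32.4 CPM without B23 and at 69.8, 68.5 and 70.3 CPM with it and rose 2.32-fold (log2 difference 1.20, SE 0.0441, limma adjusted p = 5.95e-18). DNAH6, an inner-arm chain, was at 3.32, 3.88 and 3.59 CPM without B23 and at 1.42, 1.63 and 1.38 CPM with it, or 210 to 236 reads against 69 to 75. It fell 2.44-fold (log2 difference -1.05, SE 0.0937, limma adjusted p = 1.72e-10). DNAH1, another inner-arm chain, was at 11.6, 10.4 and 12.3 CPM without B23 and at 9.58, 9.61 and 8.67 CPM with it and fell 1.23-fold (log2 difference -0.28, limma adjusted p = 4.02e-04), with 0.10 under quantile normalization. DNAH3, DNAH5, DNAH7, DNAH8, DNAH9, DNAH10 and DNAH12 were not analysed here. Of 8 markers of multiciliated cells 4 were in the table, and 3 were tested and fell. MCIDAS, a regulator of multiciliation, went from 4.88 ± 0.0746 to 1.39 ± 0.127 CPM, CCNO from 6.31 ± 0.144 to 1.76 ± 0.114 CPM and TEKT2 from 2.01 ± 0.230 to 1.08 ± 0.428 CPM. PIFO was below the filter. The summed level of the 4 was 13.5 to 14.5 CPM without B23 and 4.71 to 5.39 CPM with it. Their part in the changes of the DNAH genes was not tested.

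Most falls of more than 1 log2 unit were found in members with few exons. Of 6 members with under 4 exons in the principal transcript, TTC30A, TTC30B, BBS10, BBS12 and DYNLL1 fell by more than 1 log2 unit and DYNLL2 was not called. Among members with 4 or more exons, 2 of 41 fell by that much, TCTN3 and DNAH6. The same direction was seen in coding genes at large. Of 1697 tested coding genes with under 4 exons, 76.1% were called lower, with a median log2 difference of -0.75, against 44.1% and a median of 0.0022 in the 11514 others. The median was -1.13 over 282 single-exon genes and -0.68 over 1415 genes with 2 to 3 exons. TTC30A (-2.40) and TTC30B (-2.91) lay below the first median, and BBS10 (-1.28), BBS12 (-1.54) and DYNLL1 (-1.47) below the second. Over the 47 tested members, the number of exons and the log2 difference had a Pearson r of 0.32 and a Spearman rho of 0.33. These points are genes of the same 6 libraries and are not independent. The 5 falls were called in each alternative in which the gene was tested, 18 for BBS12 and 19 for the others. The part of exon number in them was not tested.

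**Figure D4:**
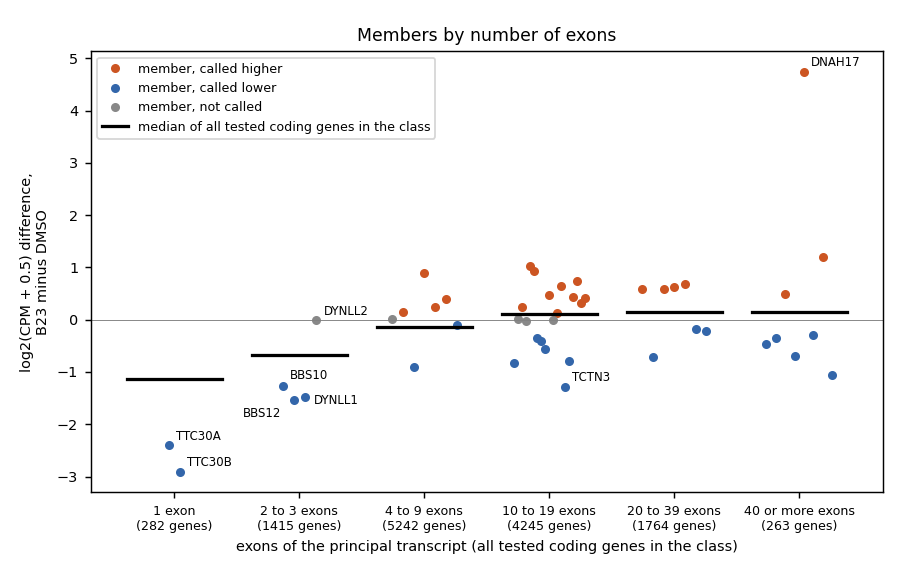
Log2(CPM + 0.5) difference, B23 minus DMSO, of the 47 tested members by the number of exons in the principal transcript, coloured by call. Black lines are medians of all tested coding genes of each class, from -1.13 for 1 exon to 0.15 for 20 to 39 exons. The members with 1 to 3 exons lie below their class median except DYNLL2.

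Per kilobase of the principal transcript, levels of members can be compared with each other. In DMSO the highest were DYNLL1 at 202 ± 14.6 CPM per kb, DYNLT1 at 151 ± 1.46, DYNLRB1 at 85.6 ± 3.10 and IFT20 at 30.8 ± 1.26. In B23 DYNLT1 led at 199 ± 1.26 CPM per kb, before DYNLRB1 at 101 ± 5.46, DYNLL1 at 72.2 ± 2.04 and IFT20 at 58.0 ± 1.21. DYNLL1 thus went from rank 1 to rank 3. The dynein-1 heavy chain DYNC1H1 was at 13.4 CPM per kb in DMSO and 18.9 in B23, and the dynein-2 heavy chain DYNC2H1 at 4.25 and 3.32. At the other end DNAH2 was at 0.0490 and 0.0176 CPM per kb and DNAH6 at 0.281 and 0.115. The principal transcript was taken from the annotation, and other isoforms would change these lengths.

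The X-box, the motif bound by RFX transcription factors and known in promoters of cilium genes from worms to mammals, was searched in RefSeq promoter windows (GRCh38.p14, 250 bases before to 50 after a gene's start). The letters searched were GTTNCC and GGNAAC with 0 to 3 bases between them, on both strands, where the motif reads the same. Windows existed for 40 of the 48 members. The motif occurred in those of 4 members (10%), of 1.07% of the 10575 tested genes with a window and of 0.905% of all 27305 symbols. It also occurred in 8 of 98 other pathway genes with a window (8.16%), from the partner lists below, so it is not particular to the members. The 4 stretches are shown because they carry the motif, in capitals, with 35 bases on either side.
DNAH1 (chr3:52316179-52316262, plus strand): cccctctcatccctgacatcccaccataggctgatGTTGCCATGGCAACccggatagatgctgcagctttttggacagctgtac
IFT122 (chr3:129440177-129440261, plus strand): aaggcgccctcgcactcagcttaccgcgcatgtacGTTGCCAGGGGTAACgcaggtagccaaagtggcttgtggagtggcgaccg
TCTN1 (chr12:110614094-110614176, plus strand): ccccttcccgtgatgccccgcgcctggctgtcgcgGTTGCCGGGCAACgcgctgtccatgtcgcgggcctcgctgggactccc
TCTN3 (chr10:95694095-95694177, minus strand): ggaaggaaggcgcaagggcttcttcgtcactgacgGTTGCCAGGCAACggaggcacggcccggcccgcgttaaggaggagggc
The genes with the motif had no common direction: IFT122 (0.59) and TCTN1 (0.14) were called higher and DNAH1 (-0.28) and TCTN3 (-1.28) lower. BBS9, DNAH17, DYNLL2, IFT22, TCTN2, TTC26, TTC30A and TTC30B had no window in the table. A match is a description of letters and not of binding.

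Genes of 4 RFX factors were among those that rose. RFX1 rose 5.11-fold, from 8.23 ± 0.102 to 42.1 ± 2.23 CPM, RFX3 rose 2.68-fold, from 11.5 ± 0.203 to 30.8 ± 1.74 CPM, and RFX2 rose 1.96-fold. RFX7 had overlapping groups and a log2 difference of 0.11 (limma adjusted p = 0.0359). That is smaller in size than the shift of -0.24 that equal totals gave the median of all tested genes. Of 10 transcription factor genes of ciliation 7 were in the table, and FOXJ1 was not. Of the 7, all tested, 6 rose and 1, MCIDAS, fell (median log2 difference 1.08). Among all tested genes 39.6% were called higher. With equal totals 5 were called higher and 2 lower.

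Partners of the members also went in both directions. Of 12 dynactin genes, whose product activates dynein-1, 8 rose, 3 fell and 1 was not called (median 0.45). ACTR1B, an actin-related filament subunit, rose 2.05-fold, from 58.6 ± 1.96 to 120.5 ± 3.56 CPM, and DCTN2 rose 1.59-fold, from 102 ± 1.29 to 161 ± 4.47 CPM. DCTN5, a pointed-end subunit, fell 1.38-fold. With quantile normalization 6 were called higher and 4 lower, with a median of 0.073. Of 16 dynein regulators and adaptors 6 rose, 5 fell and 5 were not called, with PAFAH1B1, the gene of LIS1, up 1.65-fold and HOOK3 up 1.61-fold. With equal totals 5 were called higher and 10 lower.

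Of 5 kinesin-2 genes, the outward motor, 4 fell and 1 rose. KIF3C fell 1.77-fold, from 24.2 ± 1.96 to 13.6 ± 0.327 CPM, KIF3A fell 1.31-fold, and the accessory subunit gene KIFAP3 rose 1.22-fold. With equal totals 4 kinesin-2 genes were called lower and 0 higher. Of 5 IFT subunit genes whose names fall outside the rule 1 rose, 2 fell and 2 were not called. HSPB11, which encodes IFT25, the partner of IFT27, rose 1.48-fold, from 34.9 ± 3.39 to 51.6 ± 0.539 CPM, while IFT27 fell. CLUAP1 fell 1.27-fold. Of 6 BBSome partners 2 rose and 4 fell, with ARL6, the GTPase that recruits the BBSome, down 1.86-fold and LZTFL1, a regulator of its traffic, up 1.53-fold.

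Of 20 transition zone genes 7 rose, 9 fell and 4 were not called. TMEM107 fell 3.28-fold, from 14.6 ± 0.642 to 4.46 ± 0.227 CPM, and AHI1 rose 2.83-fold, from 35.9 ± 0.535 to 102 ± 2.81 CPM. With quantile normalization the balance turned to 10 higher and 5 lower. Of 7 genes of ciliary GTPases and cargo factors 6 rose and 1 fell (median 0.49). UNC119B, a carrier of lipid-modified proteins, rose 1.71-fold, from 95.2 ± 0.911 to 162 ± 3.59 CPM. Of 10 Hedgehog pathway genes, whose signalling in mammals runs through the cilium, 1 rose, 7 fell and 2 were not called (median -0.79). HHIP, a ligand-binding inhibitor, fell 4.01-fold, from 4.37 ± 0.370 to 1.09 ± 0.0970 CPM, and the receptor gene GPR161 fell 2.68-fold, from 37.4 ± 0.697 to 13.95 ± 0.134 CPM. PTCH1 fell 1.65-fold, from 27.0 ± 1.20 to 16.4 ± 0.468 CPM. GLI1, with 82 to 125 reads per library, had means of 1.88 ± 0.0936 CPM without and 1.87 ± 0.103 CPM with B23 and was not called. In each of the 4 other scalings 7 to 9 Hedgehog genes were called lower.

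Of 16 axonemal dynein assembly factors 12 were in the table, of which 7 rose, 4 fell and 1 was not called. CCDC103 fell 11.5-fold, from 9.58 ± 0.179 to 0.833 ± 0.0655 CPM, and DNAAF2, a cochaperone of dynein preassembly, fell 3.78-fold, from 22.99 ± 0.313 to 6.08 ± 0.283 CPM. With equal totals 5 were called higher and 6 lower. Of 14 other axonemal dynein and docking genes only 6 were in the table, and DNAI1, DNAI2 and DNALI1 were not. Of the 6, 4 rose, 1 fell and 1 was not called, with DNAL4 up 2.12-fold and ARMC4 down 1.68-fold. Of 124 other pathway genes 109 were in the table. Of these 51 rose and 42 fell, or 46.8% and 38.5%, beside 39.6% and 49.0% of all genes. The lists hold few genes each, and their shares were compared with the background only as counts.

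**Figure D5:**
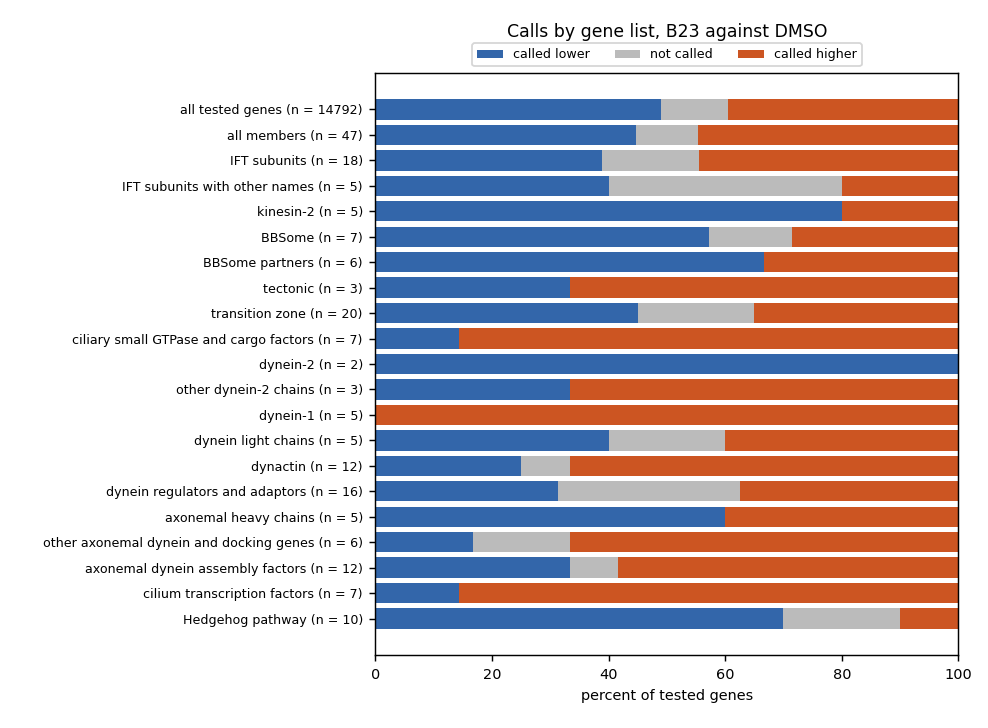
Share of tested genes called lower, not called and called higher in B23, in percent, for all tested genes, the members, their complexes and lists of partner genes, with the number tested in parentheses. The dynein-1 bar is wholly higher and the bar of the 2 dynein-2 members wholly lower, the 3 other dynein-2 chains are split 2 to 1, and the bar of all members is close to that of all tested genes.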

How the data were processed

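Polyadenylated RNA was sequenced from 3 B23 and 3 DMSO libraries, prepared with a strand-marking kit (labels' protocols). The submitters' processing notes list hg38 and the tools edgeR, HTSeq, STAR 2.6.1d and SAMtools, with no order or settings. The deposited table holds CPM, scaled by the authors by a factor of unstated method. 100% of the values were whole multiples of 1 read within 0.001 reads, so whole reads were recovered. Values say nothing of RNA per cell.

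Symbols were matched to GENCODE 29 on GRCh38, all 15496 of them, for positions, exons and overlaps. Overlapping genes are named when they average 10% or more of the member. The CPM as deposited, as log2(CPM + 0.5), were tested with limma 3.58.1 under R 4.3.3 (trend and robust empirical Bayes, two-sided) in the 14792 genes averaging 1 CPM or more. Ratios of related genes were compared with exact two-sided permutation tests over libraries in scipy 1.17.1.

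The members and lists were chosen with earlier results of these data known. Members were all named, with values per library for up to 3 of the largest differences in each complex and for a set of defining genes, and others by their folds. The 2 called genes with the largest difference in each partner list were named, except 1 that is not reported here, and further partner genes after their values were seen. The alternatives used pseudocounts of 0.1 and 2, a minimum mean of 5 CPM or none, 4 other scalings (median-of-ratios, TMM, equal totals of the listed genes, quantile), a plain empirical Bayes step, the replicate number as a block, edgeR 4.0.16 and DESeq2 1.42.0 on the recovered reads with the authors' scaling, a table without 144 rows nearly equal to an overlapping one, and each library left out. edgeR called 5866 genes higher and 7270 lower.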

Additional observations from a re-analysis of the deposited data

How the results depend on the processing

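Over 19 alternatives, 30 of the 42 called members kept their call and direction in every one in which they were tested, and 12 changed in at least 1. The counts of members called, 21 higher and 21 lower, stayed within 1.5 times in each alternative, as did the counts of all genes. The median log2 difference of the members moved from -0.011 to 0.10 with median-of-ratios scaling, 0.066 with TMM, 0.040 with quantile normalization and -0.26 with equal totals. The median of all genes shifted with it, by 0.11 with median-of-ratios scaling and by -0.24 with equal totals, from -0.10. With median-of-ratios scaling the sign changed for DYNLL2 (0.10), DYNLT3 (0.0082), TTC26 (0.085) and TTC8 (0.092). With TMM scaling the sign changed for DYNLL2 (0.066), TTC26 (0.054) and TTC8 (0.061). With equal totals the sign changed for DYNLRB1 (-0.015), IFT22 (-0.10), IFT43 (-0.23), IFT52 (-0.24), IFT81 (-0.012) and TCTN1 (-0.11). With quantile normalization the sign changed for BBS9 (0.18), DNAH1 (0.10), DYNC1H1 (-0.0080), DYNLT1 (-0.0043), IFT52 (-0.10), TTC26 (0.083) and TTC8 (0.28). Leaving out 1 library at a time changed the sign only of members that were not called, DYNLL2 (-0.060 to 0.037), TTC26 (-0.051 to 0.0088), IFT43 (-0.0042 to 0.032) and TTC8 (-0.061 to 0.028), and lost the calls of DYNLT3, IFT22 and TCTN1. Deviations from the group means correlated at 0.026, -0.070 and -0.062 between same-numbered libraries, and at -0.079 to 0.16 between the others. No pairing by replicate number was seen, but such values from 3 libraries per group cannot exclude it. The fit with the replicate number as a block called 21 members higher and 21 lower, and 5850 and 7256 genes in all, and changed no call of a member. Depth limits DNAH2, with 7 to 23 reads in B23, and TTC30B, with 44 to 60.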
